A study of Caenorhabditis elegans with 4 samples.

Results

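HPL-2 peaks on chromosome III of Caenorhabditis elegans are described from a ChIP-seq study of young adult hermaphrodites. The members are all peaks that the deposited lists place on III, namely 75 of 329 peaks in the combined list, 4869 of 30000 in ChIP replicate 1 and 3836 of 22864 in ChIP replicate 2. All 4 samples, 2 ChIP and 2 input libraries, come from strain YL472, grown at 20 °C on E. coli. Its genotype is unc-119(ed3) III with the array vrEx66, in which HPL-2 fused to GFP and FLAG (tag GFP::3xFlag) is driven by the mex-5 promoter beside an unc-119(+) marker. Worms were fixed in 2% formaldehyde, 10% of the lysate was kept as input, and the rest was precipitated with a goat antibody against GFP. The deposited replicate lists carry other replicate numbers than the sample titles, and each was given the number of the sample that holds it.

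HPL-2 is a homologue of heterochromatin protein HP1. HP1 proteins carry a chromodomain that binds histone H3 methylated at lysine 9 and a chromoshadow domain through which they pair and recruit other proteins. In C. elegans, methylated lysine 9 is found mostly along the arms of the autosomes, whereas the gene-rich centres carry less of it, and HPL-2 is needed for full fertility and for repression of many genes. The mex-5 promoter is active in the germline, and the array is extrachromosomal, introduced by bombardment without outcrossing, so the values describe tagged protein made from a transgene. Of the parts of the array, 2 have their native copies on III, and whether the array adds to any peak there was not tested. RefSeq's gene table for assembly WBcel235 puts both hpl-2 and unc-119 on III, and mex-5 on IV. In the order of the 2642 protein-coding genes of III in that table, 82.5% come before hpl-2, between enu-3.6 and rnf-113, and unc-119 follows after 22 further genes. The peak lists do not tell reads of the array from reads of these native genes. The peak positions are in WormBase build WS220, which is another build than that of the table, so no gene was placed on any peak.

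The most combined peaks per Mb were found on III, with I next. On III these peaks were spread over both arms and the centre. Replicate peaks there had a partner in the other replicate more often than those of most chromosomes. Both replicate lists were also denser on III, and no such difference was shown among peaks at the highest score of each list. Combined peaks stood at 5.44 per Mb on III, 4.72 on I, 3.37 on IV, 3.34 on II, 2.34 on V and 1.35 on X. The share of III among combined peaks was 22.8% (95% exact Clopper-Pearson interval 18.4 to 27.7%), where it has 13.7% of nuclear length. Chromosome I held 21.6% (17.3 to 26.4%), and its interval overlaps that of III. Among the peaks of replicate 1 at the highest score the order was reversed, with 7.62 per Mb on III and 8.10 on I, and in replicate 2 it was 28.2 and 25.1. Chromosome length was taken as the highest peak end, 13781232 bp on III. Peaks served as units in all tests, so no p-value measures variation between worm populations, and the labels do not say whether the 2 ChIP libraries came from separate cultures. Neighbouring peaks of a list are not independent, which these tests do not take into account.

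The share of III fell with rank in each replicate list. The number in a peak's name gives its rank, with 1 the best. In replicate 1, III held 21.5% (16.8 to 26.8%) of the nuclear peaks ranked 1 to 300. It held 20.6% of those ranked 301 to 1000 and 18.5% (17.3 to 19.8%) of those ranked 1001 to 5000. Further down, the share was 16.7% at ranks 5001 to 10000, 15.9% at ranks 10001 to 20000 and 14.98% (14.3 to 15.7%) at ranks 20001 to 30000. Each step down the list was thus lower, and the intervals of the first and last bins do not overlap. Replicate 2 gave 23.5% (18.6 to 28.9%), 22.3%, 18.8% (17.6 to 20.0%), 17.1% and 15.6% (14.9 to 16.3%) over the first 5 of these bins, and 15.8% (14.5 to 17.2%) beyond rank 20000. The lowest interval bound of any bin, 14.3%, lay above the length share in both replicates. The fall was not particular to III. Chromosome I held 24.0% of the best 329 nuclear peaks and 16.9% of all in replicate 1, and 24.3% and 17.7% in replicate 2. For III the same shares were 21.9% and 16.2% in replicate 1, and 23.1% and 16.8% in replicate 2. These shares are a description, and order among the best peaks rests on names alone. The first 532 ranks of replicate 1 and the first 1865 of replicate 2 share the highest score of their list, with 105 and 388 peaks of III among them. All 329 combined peaks have a single score, so their order rests on names too.

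**Figure D1:**
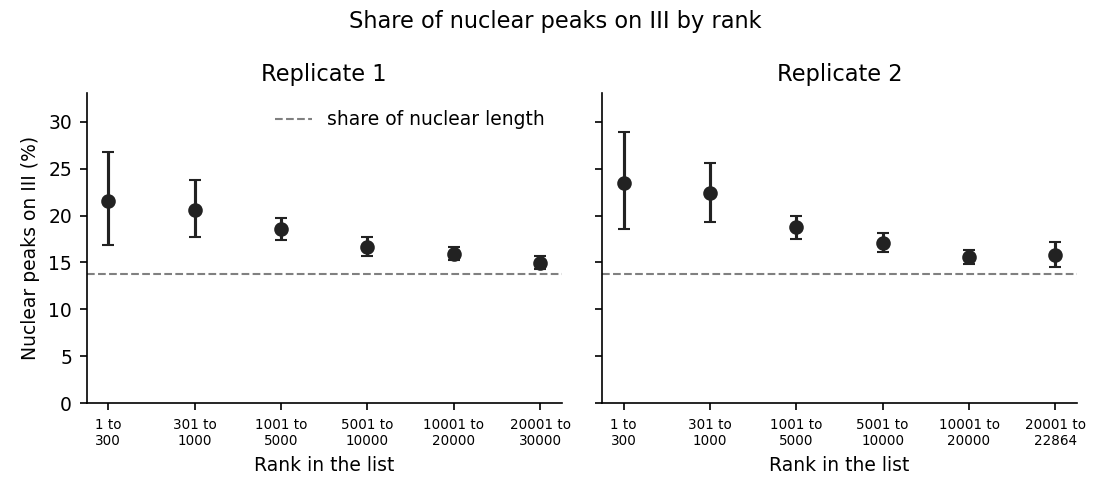
Share of nuclear peaks that lie on III (y axis, percent) by rank in the list of each replicate (x axis), with 95% exact binomial intervals; the dashed line is the share of nuclear length held by III, 13.7%. The points fall from 21.5% to 14.98% in replicate 1 and from 23.5% to 15.8% in replicate 2 and all stay above the line.

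Next, III was cut by peak midpoint into a left arm, a centre and a right arm of equal length, 4.59 Mb each. This asks whether tagged HPL-2 favours the arms, where methylated lysine 9 is concentrated. The left arm ends at 4593744 and the right arm begins at 9187489. The left arm held 19 of the 75 combined peaks (25.3%, 95% interval 16.0 to 36.7%), the centre 32 (42.7%, 31.3 to 54.6%) and the right arm 24 (32%, 21.7 to 43.8%). In density these are 4.14, 6.97 and 5.22 peaks per Mb. None of the 3 shares differed from an even split (adjusted p = 0.266, 0.263 and 0.903, exact binomial tests adjusted over the 3 segments). The highest density lay in the centre, but its interval includes an even split.

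The arm share of III was close to that of the other autosomes. Arms held 43 of 75 combined peaks on III (57.3%) and 137 of 230 on I, II, IV and V (59.6%), and over all autosomes 59.0% of combined peaks lay in arms. The difference was -2.23 percentage points (adjusted p = 0.787, Fisher's exact test). With segments of equal length, an even split would put a larger share than either in the arms. The centre held 42.7% on III and 40.4% on the other autosomes, both above an even split. Neither passed (adjusted p = 0.263 and 0.0752, exact binomial tests). Chromosomes I, IV, V and X also had their highest density in the centre, at 6.58, 4.29, 3.15 and 1.86 peaks per Mb. II differed in order, with 5.50 per Mb in its right arm and 2.55 in its centre. Among these single autosomes, the centre of I was high at 46.5% and its right arm low at 21.1% (both adjusted p = 0.0477, exact binomial tests). The right arm of II was high at 54.9% (adjusted p = 0.00488, exact binomial test).

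**Figure D2:**
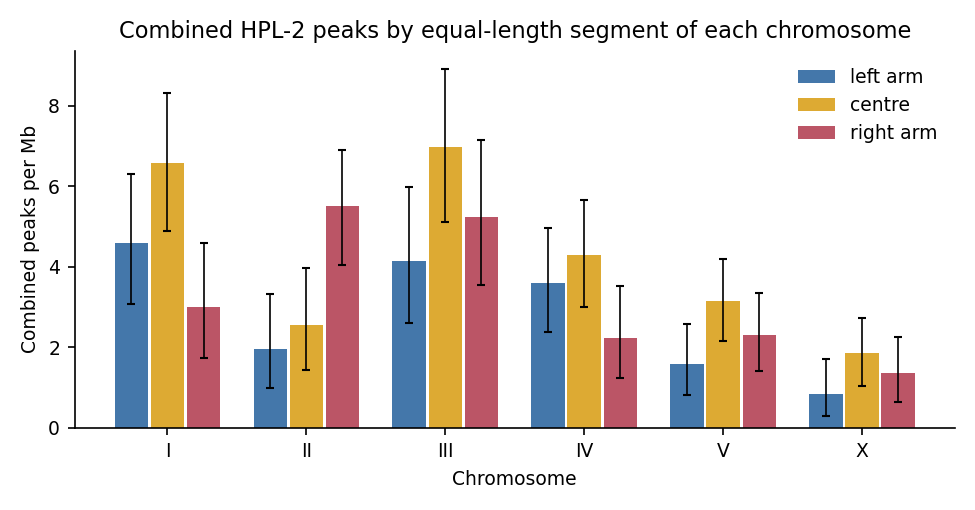
Combined peaks per Mb (y axis) in the left arm, centre and right arm of each chromosome (x axis), each cut into 3 segments of equal length; bars start at 0 and lines are 95% exact binomial intervals of the segment's share of its chromosome. III shows 4.14, 6.97 and 5.22 peaks per Mb, and the intervals of its segments overlap.

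The replicate lists filled the segments of III more evenly. In replicate 1 the left arm, centre and right arm held 1623, 1577 and 1669 peaks, or 353, 343 and 363 peaks per Mb. None of these shares differed from an even split (lowest adjusted p = 0.2499, exact binomial tests). In replicate 2 they held 1179, 1361 and 1296 peaks, or 257, 296 and 282 per Mb. The left arm was low at 30.7% (adjusted p = 0.00184) and the centre high at 35.5% (adjusted p = 0.00746), while the right arm at 33.8% did not pass (adjusted p = 0.560, exact binomial tests). This was not particular to III. On the other autosomes replicate 2 had the same order, with 31.8% in the left arm, 35.9% in the centre and 32.3% in the right arm. The lists thus differ in order, since the centre was the lowest segment in replicate 1 and the highest in replicate 2.

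Among the best 329 nuclear peaks of each replicate, as many as the combined list holds and called best peaks from here on, III had 72 in replicate 1 and 76 in replicate 2. Their split over left arm, centre and right arm was 17, 29 and 26 in replicate 1 and 23, 31 and 22 in replicate 2. No segment passed the exact binomial test (lowest adjusted p = 0.244), and the limit of 329 falls among tied peaks. Over all peaks of III at the highest score, the segments held 28, 36 and 41 in replicate 1 (lowest adjusted p = 0.323, exact binomial tests). In replicate 2 they held 106, 155 and 127, with the left arm low at 27.3% and the centre high at 39.9% (both adjusted p = 0.0171, exact binomial tests). On the other autosomes, peaks of replicate 2 at the highest score had a like split, with 27.6% in the left arm and 42.6% in the centre. On III the centre thus led in replicate 2, and the right arm in replicate 1. At ranks 301 to 1000 the centre held 45 of 144 peaks on III in replicate 1 (31.3%) and 68 of 156 in replicate 2 (43.6%). The centre shares of the replicates were furthest apart in this bin, which was picked out after the values were seen. All its peaks share the highest score in replicate 2, but in replicate 1 only those up to rank 532 do.

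Of the 15 best-ranked combined peaks in the genome, 5 were on III, and 4 of these were in the left arm. Among the first 100 the split was 10 in the left arm, 8 in the centre and 11 in the right arm, so the lead of the left arm did not extend down the list. Combined peak 4 spanned III:1419669-1419904 and overlapped peaks ranked 58 in replicate 1 and 50 in replicate 2. Combined peak 5 spanned III:1618816-1619451, with ranks 32 and 108. Combined peak 9, at III:3867435-3867719, had ranks 30 and 101. These 3 sites were high in both replicates. Combined peak 15, at III:4015582-4015932, had the most even pair, with ranks 29 and 30. Combined peak 16, at III:4171988-4172623, had ranks 102 and 46, and it overlapped combined peak 88 next to it. All 5 lay at best peaks of each replicate.

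In the centre the leading peaks came later in the combined order. Combined peak 20, at III:6969884-6970121, had ranks 159 in replicate 1 and 29 in replicate 2, and combined peak 71, at III:6373775-6374410, had ranks 154 and 41. These were high in both lists. Combined peak 41, at III:5273193-5273828, ranked 82 in replicate 1 but 806 in replicate 2, and combined peak 66, at III:6958723-6959358, ranked 143 and 1288. Combined peak 54, at III:8904704-8905339, ranked 640 and 181. Combined peaks 41 and 66 were still at the highest score of both lists, and combined peak 54 only at that of replicate 2.

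The leading peaks of the right arm were mixed. Combined peak 14, at III:10758841-10759476, ranked 19 in replicate 1 and 714 in replicate 2. Combined peak 63, at III:12608387-12609022, ranked 31 and 4692. Combined peak 59, at III:10505699-10506334, ranked 978 and 40, the opposite order. Combined peaks 63 and 59 were at the highest score of 1 replicate and not of the other, whereas combined peak 14 was at the highest score of both. Combined peak 27, at III:13464132-13464767, ranked 215 and 16, and combined peak 32, at III:10746119-10746754, ranked 22 and 61. These last were high in both lists.

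Every one of the 75 combined peaks overlapped at least 1 peak of each replicate, from 1 to 3 peaks of replicate 1 and from 1 to 4 of replicate 2. On the other chromosomes 248 of 254 combined peaks had a partner in both. These lists share their ChIP libraries, so the counts are a description. The best overlapping rank ran from 19 to 10495 in replicate 1, with a median of 285, and from 16 to 19561 in replicate 2, with a median of 218. On the other chromosomes the medians were 241 and 364.5. The better rank was that of replicate 1 for 36 peaks of III and that of replicate 2 for 39, where elsewhere it was 148 and 99. Both ranks were at most 1000 for 40 of the 75 on III and 137 of the 254 elsewhere. At least 1 rank lay beyond 5000 for 12 on III and 27 elsewhere. Spearman's rho between the 2 ranks was -0.01 across these 75 peaks, which were chosen on both lists, and so it describes only the list. For 37 of them both ranks lay among peaks tied at the highest score, where the order rests on names alone. Of the 75, 70 were 636 bp wide. The other 5, from 202 to 351 bp, were combined peaks 4, 9, 15, 20 and 274, a set picked out after their widths were seen.

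**Figure D3:**
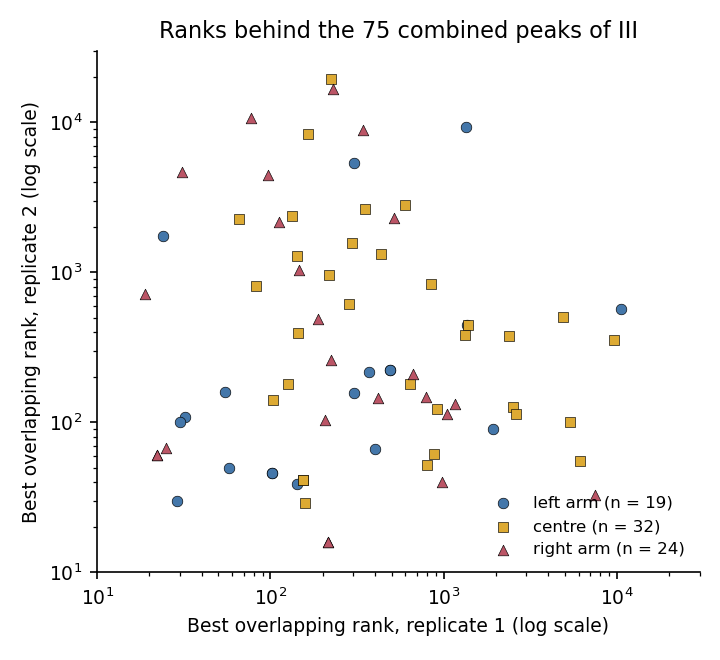
Best rank in replicate 1 (x axis, log scale) and in replicate 2 (y axis, log scale) among the peaks that overlap each of the 75 combined peaks of III, with colour and shape for the 3 segments. Ranks run from 19 to 10495 and from 16 to 19561, with a rho of -0.01. Many of these ranks lie among peaks tied at the highest score of a list, where the order rests on names alone.

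Among combined peaks on III, 21 of the 75 overlapped best peaks of each replicate (28.0%, 95% interval 18.2 to 39.6%), where 25.5% of all combined peaks did. Another 21 overlapped best peaks of replicate 1 only, 20 of replicate 2 only and 13 of neither replicate. On the other chromosomes the counts were 63, 91, 60 and 40 of 254. The share of III is thus near that of the whole list. Within III, 9 of 19 left-arm peaks overlapped best peaks of both (47.4%, 24.4 to 71.1%), 5 of 32 in the centre (15.6%, 5.28 to 32.8%) and 7 of 24 in the right arm (29.2%, 12.6 to 51.1%). The left arm had the highest share and the centre the lowest, with intervals that overlap.

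Spacing was examined next, because HP1 proteins can spread along neighbouring nucleosomes. The median gap between neighbouring combined midpoints on III was 138 kb, with quartiles of 31.7 and 243 kb. It was 117 kb on I, 119.2 kb on II, 151 kb on IV, 205 kb on V and 510 kb on X. Gaps over 500 kb made up 6 of 74 on III (8.11%), 8 of 70 on I (11.4%) and 58 of 249 over all other chromosomes (23.3%), of which X had 12 of 23 and V 15 of 48. These shares were not adjusted for density, which was a mean of 184 kb per combined peak on III and 340 kb on the other chromosomes together. The widest empty stretch lay in the left arm, from III:1951771 to 2785673, between combined peaks 49 and 243. Its ends are 834 kb apart. It was not empty in the replicate lists, which held 269 and 187 peaks there, or 323 and 224 per Mb, with best ranks of 196 and 699. Those densities are somewhat lower than the 353 and 278 per Mb of all III.

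Close neighbours were counted on III and elsewhere. A neighbour within 5 kb was found for 16 of 75 combined peaks on III (21.3%) and for 62 of 254 on the other chromosomes (24.4%), and for 23.7% of all combined peaks. The difference of -3.08 percentage points did not pass (adjusted p = 0.787, Fisher's exact test), and its sign turned at 1 kb and at 10 kb. With overlapping peaks merged the shares were 8.57% on III and 13.8% elsewhere. Among best peaks they were 11.1% and 16.7% in replicate 1 and 28.9% and 26.5% in replicate 2. Joining neighbours gave 67 regions on III, of which 59 held 1 peak and 8 held 2. In 5 of the 8 pairs the peaks overlapped each other, so that merging left 70 regions. The 3 pairs of separate peaks were at III:3397492-3400932 (combined peaks 237 and 287), III:3867435-3869887 (9 and 55) and III:10754325-10759476 (100 and 14).

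**Figure D4:**
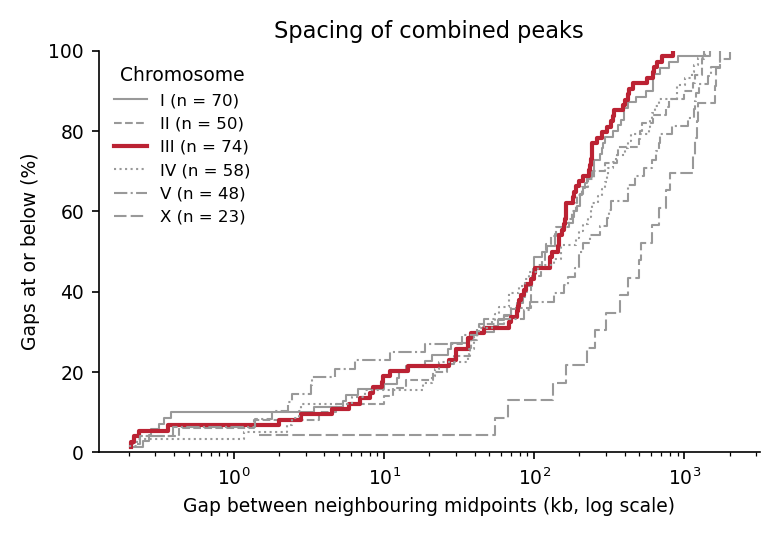
Cumulative share of gaps (y axis, percent) by the distance between neighbouring midpoints of combined peaks (x axis, kb, log scale), 1 line for each chromosome with III in red. The curve of III reaches 100% at 835 kb, with a median of 138 kb, whereas X has a median of 510 kb.

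In windows of 100 kb, combined peaks of III were widely scattered. Of 138 windows, 85 held none, 37 held 1, 12 held 2, 3 held 3 and 1 held 5. A combined peak was present in 38.4% of windows on III, where 24% of all nuclear windows had one. The share with 3 or more was 2.90% on III and 1.69% over all windows. Neither comparison was adjusted for the higher density of combined peaks on III. In the centre, 23 of 46 windows held a combined peak, against 14 of 46 in the left arm and 16 of 46 in the right arm. The longest runs without one were 7 windows from 2 to 2.7 Mb, 6 windows from 9 to 9.6 Mb and 6 windows from 12.7 to 13.3 Mb.

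The window III:10700001-10800000 in the right arm held 5 combined peaks, a number that 1 window on I also reached and no other. With windows shifted by 50 kb, no window of III held more than 3, because the boundary then falls among them. The 5 lay within 19.2 kb, from III:10740284 to 10759476. Combined peak 295 spanned III:10740284-10740919 and had ranks of 77 and 10625 in replicates 1 and 2. Combined peaks 32 and 72 overlapped each other, at III:10746119-10746754 and III:10746324-10746959, and shared ranks of 22 and 61. Combined peak 100, at III:10754325-10754960, had ranks of 419 and 145, and combined peak 14 those given above, 19 and 714. The overlapping pair therefore lay at best peaks of both replicates, combined peaks 14 and 295 at best peaks of replicate 1 alone and combined peak 100 at those of replicate 2 alone. All of them but combined peak 295 were at the highest score of both lists.

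This window was also full in the replicate lists. It held 59 peaks in replicate 1, the most of any window on III, where the median was 35, and 41 in replicate 2, the sixth highest, where the median was 28. Of these, 29 of the 59 (49.2%) and 26 of the 41 (63.4%) had a partner in the other replicate. The shares were 35.1% and 42.8% over all of III, and 29.3% and 36.6% over all nuclear peaks. The window was picked for its count, and its partner shares were not adjusted for its density of peaks. At III:10753238-10755578, overlapping peaks of both lists, 6 of replicate 1 and 4 of replicate 2, formed a run of 2341 bp around combined peak 100. It was the third widest on III and was singled out after its width was seen. Whether the native hpl-2 gene or its array copy lies behind any of these peaks was not tested, because no gene was placed in build WS220. Without this window, III had 1.57 times its length share of combined peaks (1.25 to 1.93), against 1.66 with it. Its share of peaks with a neighbour within 5 kb was then 17.1%. The window was left out after the data were seen and is not known to hold any part of the array, so these values do not bear on the array.

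The other fullest windows held 3 combined peaks each. The window from 4.4 to 4.5 Mb held combined peaks 320 and 93, which overlap (III:4476260-4476895 and III:4476624-4477259, both with ranks 488 and 223), and peak 94 at III:4491040-4491675 (ranks 24 and 1735). It also had the most replicate 2 peaks on III, 45, of which 25 had a partner in replicate 1 (55.6%). That share was 42.8% over all of III and 36.6% over all nuclear peaks, again not adjusted for density. The window from 10.2 to 10.3 Mb held combined peak 149 at III:10209473-10210108 (ranks 97 and 4445), peak 102 at III:10216421-10217056 (206 and 104) and peak 274 at III:10225060-10225261 (667 and 209). The window from 6.9 to 7 Mb held combined peak 240 at III:6931643-6932278 (ranks 1375 and 443) beside peaks 66 and 20. Its replicate counts, 36 and 30, were near the medians. A high count of combined peaks thus did not always go with a high count in the replicate lists.

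Across the 138 windows of III, the numbers of peaks in replicates 1 and 2 had a Pearson r of 0.61 and a Spearman rho of 0.59. Elsewhere r ran from 0.44 on X to 0.67 on V. The windows share the libraries and their sequence composition, so these values are descriptions.

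Sites called in both ChIP lists were counted last, with overlap of at least 1 bp. On III, 1710 of 4869 replicate 1 peaks had a replicate 2 partner (35.1%, 95% interval 33.8 to 36.5%), where 29.3% of all nuclear peaks had one. In the other direction it was 1643 of 3836 (42.8%, 41.3 to 44.4%), where 36.6% of all nuclear peaks had one. Against the other chromosomes the replicate 1 share was 6.90 percentage points higher on III (28.2% elsewhere, adjusted p = 5.71e-21, Fisher's exact test adjusted over 4 comparisons). By single chromosome, it was higher on III than on II (29.3%), IV (29.7%), V (26.6%) and X (20.3%), with a largest adjusted p of 9.22e-09, and not shown to differ from I (34.6%, adjusted p = 0.584, Fisher's exact tests adjusted over 5). For replicate 2 peaks, III was 2.22 points above I (adjusted p = 0.0467, Fisher's exact test). Peaks of 1 list can overlap each other and share a partner. Of the 1337 joined sites on III described below, 608 held several peaks of 1 list. The Fisher's exact tests take each peak as independent, so their p-values are likely too small.

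The density of the other list moved with these shares. Replicate 2 peaks covered 11.1% of III, 10.74% of I and 8.82% of the other chromosomes together. How far this cover sets the partner shares was not tested. A partner needs 1 bp of overlap anywhere along a peak, whereas cover counts single bases. Peaks of III were 490 bp wide in replicate 1 and 420 bp in replicate 2. The partner share would thus exceed the covered share even for peaks placed at random, so their ratio is no fold enrichment over chance. The partner share of replicate 1 peaks was 3.17 times the covered share on III, 3.22 on I, 3.23 on II, 3.199 on IV, 3.27 on V and 2.76 on X. For replicate 2 peaks the ratio was 2.70 on III and 2.70 over the other chromosomes together. Relative to covered sequence, III thus stood close to the other autosomes. Among best peaks the partner share did not differ, at 19 of 72 on III (26.4%) and 62 of 257 elsewhere (24.1%), with 24.6% over all best peaks (adjusted p = 0.787, Fisher's exact test). Nor did it pass among all peaks at the highest score of each list, where III was 2.43 points higher (adjusted p = 0.787, Fisher's exact test).

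By rank, partners were frequent among the best peaks of III and less so below. In replicate 1 the share was 85.0% of the 60 peaks ranked 1 to 300 and 63.2% of the 144 ranked 301 to 1000. It was 46.2% of the 741 ranked 1001 to 5000 and 29.3% of the 1498 beyond rank 20000. On the other chromosomes it was 84.0%, 55.0%, 39.5% and 22.4%. In replicate 2 it was 86.2% of 65 peaks, 67.3% of 156, 52.0% of 750 and 34.9% of 453 on III, and 89.6%, 70.5%, 42.3% and 29.1% elsewhere. III was therefore higher than the rest below rank 1000 in both replicates, and at ranks 1 to 1000 the 2 replicates did not give one order. The median distance between partner midpoints was 169.5 bp on III and 172 bp elsewhere.

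**Figure D5:**
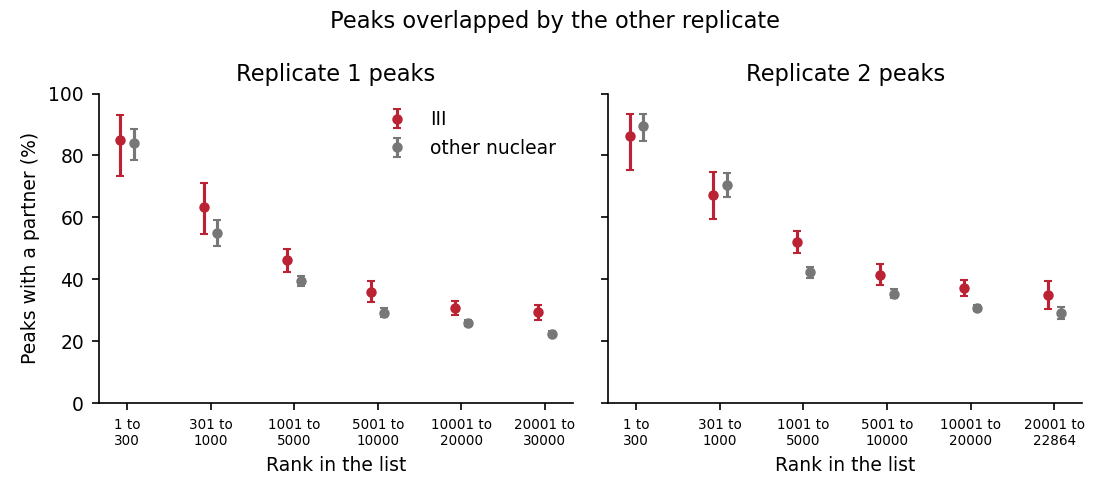
Share of peaks overlapped by a peak of the other replicate (y axis, percent) by rank (x axis) for III in red and the other nuclear chromosomes in grey, with 95% exact binomial intervals. On III the share falls from 85.0% to 29.3% in replicate 1 and from 86.2% to 34.9% in replicate 2, and it lies above the grey points below rank 1000.

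Within III, replicate 1 peaks had a partner in 31.98% of left-arm peaks (29.7 to 34.3%), 38.1% in the centre (35.7 to 40.6%) and 35.4% in the right arm (33.1 to 37.7%). The intervals of the left arm and the centre do not overlap, and the same was seen on the other autosomes, at 28.6% (27.5 to 29.6%) and 31.97% (30.9 to 33.1%). Replicate 2 covered the segments unevenly too, with 257, 296 and 282 peaks per Mb. For replicate 2 peaks the shares were 42.2%, 42.1% and 44.1%, which are close to each other.

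Joining overlapping peaks of both lists gave 1337 sites on III that hold at least 1 peak of each, or 97.0 per Mb, against 91.5 on I and 65.5 over all other chromosomes. The left arm had 413, the centre 471 and the right arm 453. Their median width was 736 bp, and 608 of them held several peaks of 1 list. A combined peak overlapped 69 of the 1337 (5.16%), where the share over all nuclear sites was 4.34%. At ranks up to 1000 in both lists there were 51 sites on III, 3.70 per Mb, and 35 of them were in the combined list. I had 3.12 per Mb, and the other chromosomes together had 170 such sites, 1.97 per Mb, with 127 in the combined list. At ranks up to 300 the combined list held 16 of 17 sites on III and 49 of 51 elsewhere.

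The site of III best ranked in both lists but outside the combined list was III:7177849-7178900, with ranks of 255 and 79 in replicates 1 and 2. In the right arm, III:12250183-12251367 had ranks 370 and 269 and III:10875336-10876387 had 361 and 470. In the left arm, III:1625694-1626426 had 397 and 155 and III:4470747-4471379 had 379 and 412. The worse of the 2 ranks was thus 470 or better at each of these sites, while among the combined peaks of III it reached 19561.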

How the data were processed

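The authors deposited peak lists as GFF3, 1 for each ChIP library and 1 combined list. Positions refer to WormBase WS220 per the file headers, and the source field of the rows names SPP followed by IDR, a ranking of peaks by reproducibility. Each peak carries a deposited score on a scale that is not named, which was used only to find peaks at the highest value of a list. The sources used here do not give the aligner, versions, thresholds, read depth or handling of input, and no input values were analysed. Read depth being unknown, intervals cover the number of peaks only. The 30000 peaks of replicate 1 may reflect a limit on list length.

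Peaks were ranked by the number in their name and compared by overlap of at least 1 bp. Shares of segments were tested by two-sided exact binomial tests, and III against other chromosomes by two-sided Fisher's exact tests, both with Benjamini-Hochberg adjustment and a threshold of 0.05. Mitochondrial peaks were left out. Steps were tested on simulated lists. Named sites are the 5 best-ranked combined peaks of each segment, those in the fullest windows, the widest gap and the 5 sites of both lists best ranked outside the combined list. The members, windows and lists were chosen with earlier results of these data known. Tests used scipy 1.17.1 and statsmodels 0.14.6 under Python 3.11.15, tables pandas 2.3.3 with numpy 2.4.6, and figures matplotlib 3.10.9.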

Additional observations from a re-analysis of the deposited data

How the results depend on the processing

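The excess of combined peaks on III over its length share stayed between 1.57 and 1.73 under 6 alternatives, within the interval of 1.34 to 2.02. No segment of III passed its test under any of the 6 alternatives run. In the better-ranked 50% of combined peaks the centre share fell to 30.8% and the right-arm share rose to 41.0%. With best peaks of 1 replicate in place of the combined list (without replicate 1 or without replicate 2), the right-arm share ran from 28.9% to 36.1%. The arm share of III minus that of other autosomes was 6.85 points in the better-ranked 50% and ran from 0.19 to 0.61 with 1 replicate left out, never past the threshold. The difference in close neighbours was 1.52 points at 1 kb and 2.47 at 10 kb, and ran from -5.62 to 2.47 with 1 replicate left out, again never past it. The partner difference stayed past the threshold under 2 alternatives and was 2.43 points (43.8% against 41.4%, adjusted p = 0.787, Fisher's exact test) among peaks at the highest score, which are far fewer. The fullest window held 3 peaks when windows were shifted by 50 kb or were 50 kb wide, and 3 with the best peaks of either replicate in place of the combined list. Combined peaks of III reached by both replicates numbered 37 with all peaks at the highest score, 75 with any peak and 16 with reciprocal overlap of 50%. The alternative without the window III:10700001-10800000 was chosen after seeing the data. No paired analysis was possible because the inputs that share the ChIP replicate numbers have no values analysed here.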
